A study of Sus scrofa with 18 samples.

Results

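The genes described here are the 10 core genes of the smooth muscle contractile apparatus, MYH11, MYL9, MYLK, ACTA2, ACTG2, CNN1, TAGLN, SMTN, LMOD1 and DES, out of 28210 RefSeq genes placed on the pig chromosomes (assembly Sscrofa11.1). They were chosen by name from what their proteins do. For each gene, the H3K4me3 and H3K27ac peaks lying from 3 kb before to 3 kb after the gene were collected. The samples were myometrium of Yorkshire gilts on day 15, taken from the mesometrial side of the uterus. GD15M_CM is the circular muscle and GD15M_LM the longitudinal muscle of pregnant gilts, and CD15M_CM is the circular muscle of gilts in the estrous cycle, with n = 2 gilts per group. No treatment is named for any group, and longitudinal muscle of cyclic gilts was not analysed here. The endometrium had been cut away with a scalpel, and the muscle pieces were bulk tissue. The study profiled both marks by CUT&Tag, in which a transposase tethered to the antibody cuts the DNA at marked nucleosomes, together with an IgG control, in 18 libraries in all.

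Smooth muscle contracts when calcium and calmodulin switch on the myosin light chain kinase (MYLK), which phosphorylates the regulatory light chain (MYL9) of the smooth muscle myosin whose heavy chain is MYH11. This myosin pulls on filaments of the smooth muscle actins ACTA2 and ACTG2, and calponin (CNN1), transgelin (TAGLN), smoothelin (SMTN) and leiomodin (LMOD1) bind or build those filaments, while desmin (DES) forms the intermediate filaments that tie the contractile units to the cell's scaffold. H3K4me3 is found at active promoters and H3K27ac at active promoters and enhancers. At genes that mark a cell's identity, H3K4me3 often spreads over a broad stretch of the gene.

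The authors pooled both gilts of a group before calling peaks, so each mark and group has 1 list and each value below is a single value without a replicate error. No test between groups was possible from these lists, and no SD or p-value is given. The study separately tested regions for differences between groups. Between pregnant and cyclic circular muscle it reported far fewer differing regions for H3K27ac than for H3K4me3, and fewer of both than between the pregnant layers. It also reported raised H3K4me3 at MYL9 in the longitudinal layer. Fold enrichment is the signal of the mark over IgG at a peak. Because it is not on a common scale between lists, each peak was also given a percentile by ranking the fold enrichments of its list, and a gene takes the percentile of its highest peak (0 without a peak). The lists held 33599 (GD15M_CM), 31910 (GD15M_LM) and 36331 (CD15M_CM) H3K4me3 peaks covering 47.7, 52.2 and 55.2 Mb, and 79877, 57010 and 82037 H3K27ac peaks covering 68.2, 53.0 and 75.3 Mb. The gene models came without strand, so the ends of a gene are called lower and upper by coordinate, and its start and its 3′ end cannot be told apart. In such bulk tissue, fewer muscle cells and less signal per muscle cell cannot be told apart.

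All 10 genes carried peaks of both marks in all 3 groups. A peak of H3K4me3 was present at 60.0% of all genes in GD15M_CM, 61.0% in GD15M_LM and 61.7% in CD15M_CM, and a peak of H3K27ac at 62.9%, 61.3% and 64.9%. Set beside all genes, the 10 genes differed more in the breadth of H3K4me3 than in its height. The longest H3K4me3 peak of every one of the 10 genes was among the longest 5% of its list in each group, where 9.42%, 8.99% and 10.3% of all genes had such a peak. The longest peak had a median length of 5839 bp (GD15M_CM), 11100 bp (GD15M_LM) and 7502 bp (CD15M_CM), against 2542, 2696 and 2760 bp over all genes with a peak. By height, in contrast, 0 of 10 genes reached the top 10% of the H3K4me3 list in GD15M_CM (16.4% of all genes did), 6 did in GD15M_LM (15.5%) and 2 in CD15M_CM (17.8%). For H3K27ac the same counts were 3 (26.4%), 6 (20.8%) and 8 (25.0%), and the longest H3K27ac peak was among the longest 5% of its list for 8 of 10 genes (15.2% of all genes), 9 (10.4%) and 10 (14.2%).

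**Figure D1:**
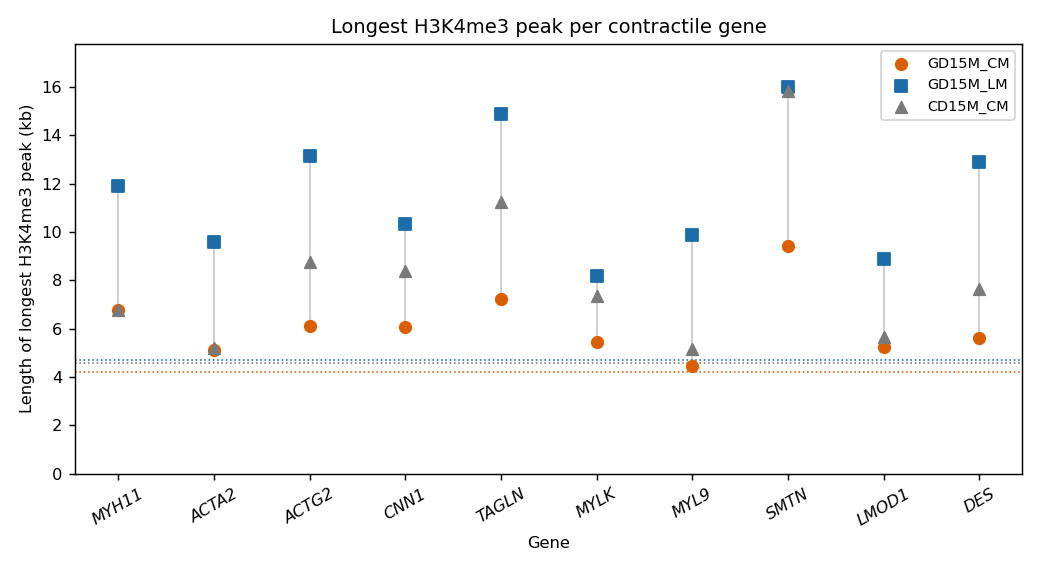
Length in kb of the longest H3K4me3 peak of each of the 10 genes in the 3 pooled lists (1 point per list, grey line from shortest to longest). Dotted lines mark the length above which the longest 5% of peaks of each list begin, and the GD15M_LM square is the highest and the GD15M_CM circle the lowest point for all 10 genes.

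Among the myosin genes, MYH11, the heavy chain, lies on chromosome 3 from 7002667 to 7143093. Its H3K4me3 was concentrated at the lower end of the gene, where the highest peak was also the longest. In GD15M_CM that peak was 6773 bp long and 15.2-fold enriched, in GD15M_LM 11893 bp and 32.4-fold, and in CD15M_CM 6789 bp and 29.0-fold. The percentiles were 79.1, 96.7 and 94.5, so pregnant circular muscle was lowest in height, and cyclic circular muscle was close to it in length but close to longitudinal muscle in height. The peak started at nearly the same base in the 3 lists (7000316, 7000285 and 7000316), and the extra length in GD15M_LM lay inside the gene, where the peak ran on to 7012177. In all, the window held 18 H3K4me3 peaks in GD15M_LM, against 4 in GD15M_CM and 7 in CD15M_CM.

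H3K27ac at MYH11 was spread over the gene body, with 27, 45 and 54 peaks in GD15M_CM, GD15M_LM and CD15M_CM. These covered 13.1%, 21.0% and 25.8% of the window. The highest H3K27ac peak was in another place in each list. It sat on the lower end in GD15M_CM with a fold enrichment of 6.74, in the interior in GD15M_LM (7032791 to 7033674) with 5.39, and just outside the gene in CD15M_CM (6999474 to 6999944) with 6.06. The percentiles of 96.6, 82.1 and 94.3 put the longitudinal muscle lowest for this mark, the reverse of its place in H3K4me3, although it had more peaks and more covered sequence than GD15M_CM.

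MYLK, which spans 299797 bp on chromosome 13 (136509878 to 136809674), is the kinase that starts contraction. Its highest H3K4me3 peak lay near the upper end and was enriched 14.0-fold in pregnant circular muscle, 36.9-fold in longitudinal muscle and 33.1-fold in cyclic circular muscle. The percentiles of 76.6, 98.5 and 97.2 gave MYLK the highest H3K4me3 of the 10 genes in GD15M_LM and in CD15M_CM, but not in GD15M_CM. In GD15M_LM this peak ran from 136801442 to 136806590, and in GD15M_CM the same stretch was called as separate peaks, the highest from 136802517 to 136803574. It also overlaps the lncRNA gene LOC102157484 (136800693 to 136834051), so the peak cannot be given to MYLK alone.

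Another broad H3K4me3 peak lay in the interior of MYLK and was its longest in all 3 lists. Its length was 5458 bp (GD15M_CM), 8167 bp (GD15M_LM, from 136724452 to 136732618) and 7361 bp (CD15M_CM), with fold enrichments of 13.5, 18.6 and 15.6. The peak at the lower end of the gene was weak by comparison, with 6.22, 9.71 and 8.55. A further interior H3K4me3 peak of 4867 bp (136776745 to 136781611) had a fold enrichment of 13.4 in GD15M_LM and one of 3023 bp had 8.18 in CD15M_CM. The long gene thus carried its strong H3K4me3 at separate places on the side of the upper end. H3K27ac followed the same side, with 43, 62 and 73 peaks in GD15M_CM, GD15M_LM and CD15M_CM. The highest of them lay at a different place in each list, and the one of CD15M_CM (136803839 to 136805992) was enriched 12.3-fold and stood at percentile 100, the highest H3K27ac value of the 10 genes in any list. That peak also overlaps LOC102157484 and cannot be given to MYLK alone. The highest in GD15M_CM (5.36, percentile 89.8) was on the interior peak near 136725489, and that in GD15M_LM (7.49, percentile 95.9) on the peak starting at 136776581.

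**Figure D2:**
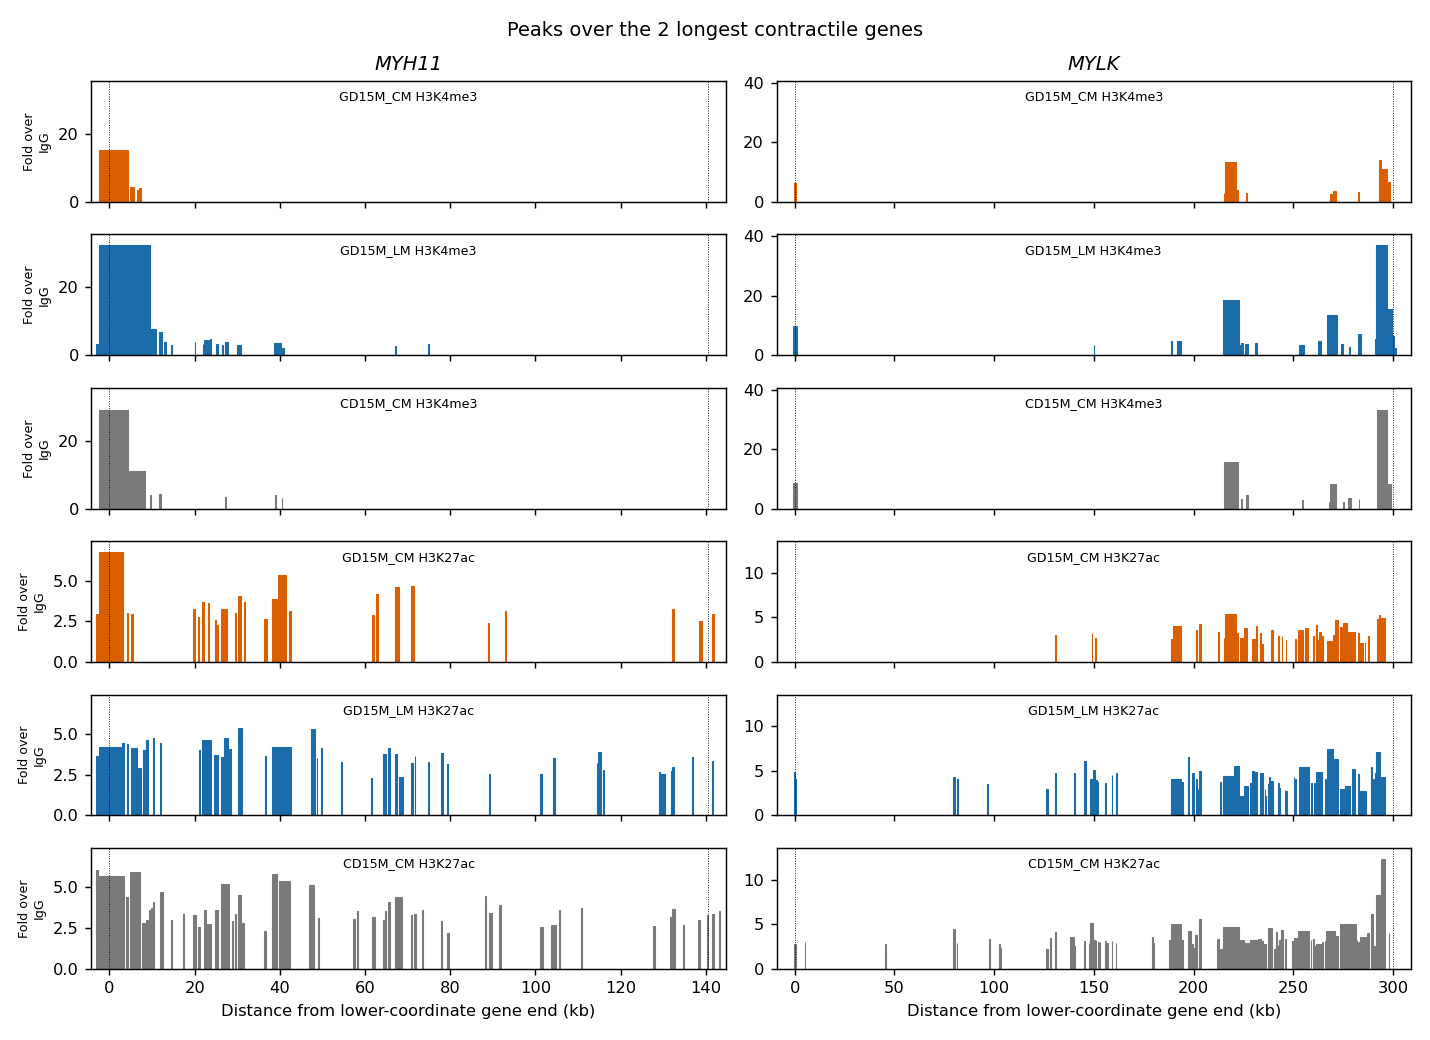
Peaks over MYH11 and MYLK drawn at their distance in kb from the lower-coordinate end of the gene, with fold enrichment over IgG as height, 1 row per pooled list and the same height scale within a mark and gene. Dotted lines mark the gene ends, and the H3K4me3 of MYH11 sits at the lower end while that of MYLK stands at separate places in its upper part.

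MYL9, the regulatory light chain, is a compact gene of 7076 bp on chromosome 17 (39788165 to 39795240) and lies inside the lncRNA gene LOC110257438. Its longest H3K4me3 peak was 4438 bp in GD15M_CM, the shortest of the 10 genes in that list. The peak was 9888 bp in GD15M_LM, where it ran from 39786897 to 39796784 and held the whole gene, and 5148 bp in CD15M_CM. Its fold enrichment was 13.2, 27.7 and 24.6 and its percentile 74.6, 92.6 and 89.7. With peaks as listed, the circular muscle of cyclic gilts was near GD15M_CM in peak length and near GD15M_LM in height. The length depended on how the signal was split, since CD15M_CM had 7 peaks here. With peaks less than 1 kb apart joined, the lengths were 5135 bp (GD15M_CM), 10744 bp (GD15M_LM) and 10389 bp (CD15M_CM), which put CD15M_CM near GD15M_LM. For H3K27ac the fold enrichments of 4.21, 6.32 and 6.77 gave percentiles of 73.9, 90.3 and 97.1, with pregnant circular muscle lowest again.

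Both smooth muscle actins kept the H3K4me3 peak at the upper end. ACTA2, the smooth muscle alpha actin (chromosome 14, 100868145 to 100886732), had nearly the same H3K4me3 height in the 3 groups. Its fold enrichments of 17.8, 23.8 and 21.3 in GD15M_CM, GD15M_LM and CD15M_CM corresponded to percentiles of 85.1, 87.2 and 85.0, the smallest range of the 10 genes. Its length did differ, with 5118 bp in GD15M_CM and 5195 bp in CD15M_CM against 9604 bp in GD15M_LM. The peak started at 100879680, 100879635 and 100879653 in the 3 lists, and in GD15M_LM it ran on to 100889238, beyond the upper end of the gene. H3K27ac at ACTA2 was high in every list (percentiles 97.4, 94.7 and 98.7, fold enrichments 7.04, 7.19 and 7.59) but broken into 11 to 13 short peaks, the longest of which were 1589, 2368 and 2768 bp.

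ACTG2, the enteric gamma actin that is abundant in uterine and gut muscle, lies on chromosome 3 from 69097366 to 69121542. Its H3K4me3 was low in height and broad. The fold enrichments were 12.3, 17.4 and 17.6 and the percentiles 72.7, 75.3 and 78.6, all below the medians over genes with a peak (80.9, 79.4 and 81.8). The same peaks were 6125 bp (GD15M_CM), 13163 bp (GD15M_LM) and 8782 bp (CD15M_CM) long, above 98.7%, 99.8% and 99.4% of the peaks of their lists. All 3 ended near the upper end and differed in how far they reached into the gene, starting at 69116003, 69110723 and 69113524. H3K27ac had its longest peak at the same end, with 2154, 4956 and 4890 bp, and its highest had percentiles of 84.5, 95.1 and 90.8.

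Among the genes whose products bind actin, CNN1, calponin (chromosome 2, 70183370 to 70190756), was broad in longitudinal muscle without being high there. Its fold enrichments were 13.2 (GD15M_CM), 15.4 (GD15M_LM) and 24.6 (CD15M_CM), with percentiles of 74.8, 71.4 and 89.7. By fold enrichment the longitudinal muscle was lowest here, but the order of the pregnant layers turned when −log10 p set the percentiles, which put GD15M_LM 9.85 points above GD15M_CM. Its peak was nevertheless longest in GD15M_LM, with 10316 bp against 6075 and 8372 bp, and held 94.4% of the gene there, 48.4% in GD15M_CM and 79.0% in CD15M_CM. The H3K27ac percentiles were 69.1, 87.7 and 88.0, so for this mark GD15M_CM alone stood low.

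TAGLN, transgelin, is the shortest of the genes (5630 bp, chromosome 9, 44561756 to 44567385), and 1 H3K4me3 peak held the whole gene in every list. The length of this peak was 7223 bp (GD15M_CM), 14880 bp (GD15M_LM) and 11232 bp (CD15M_CM). Its fold enrichments were 12.6, 26.6 and 22.0 (percentiles 73.3, 91.3 and 86.1). In GD15M_LM and CD15M_CM the peak also reached the neighbours SIDT2 on the lower side and PCSK7 on the upper side, the latter only 188 bp from TAGLN, and part of its length therefore lies on other genes. For H3K27ac the percentiles were 87.4, 79.0 and 94.1. The value of GD15M_CM came from a peak in PCSK7 (44567538 to 44569409), and the longest H3K27ac peak over TAGLN was 4863 bp there, 7281 bp in GD15M_LM and 9935 bp in CD15M_CM. In CD15M_CM this peak was also the highest and reached into SIDT2.

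**Figure D3:**
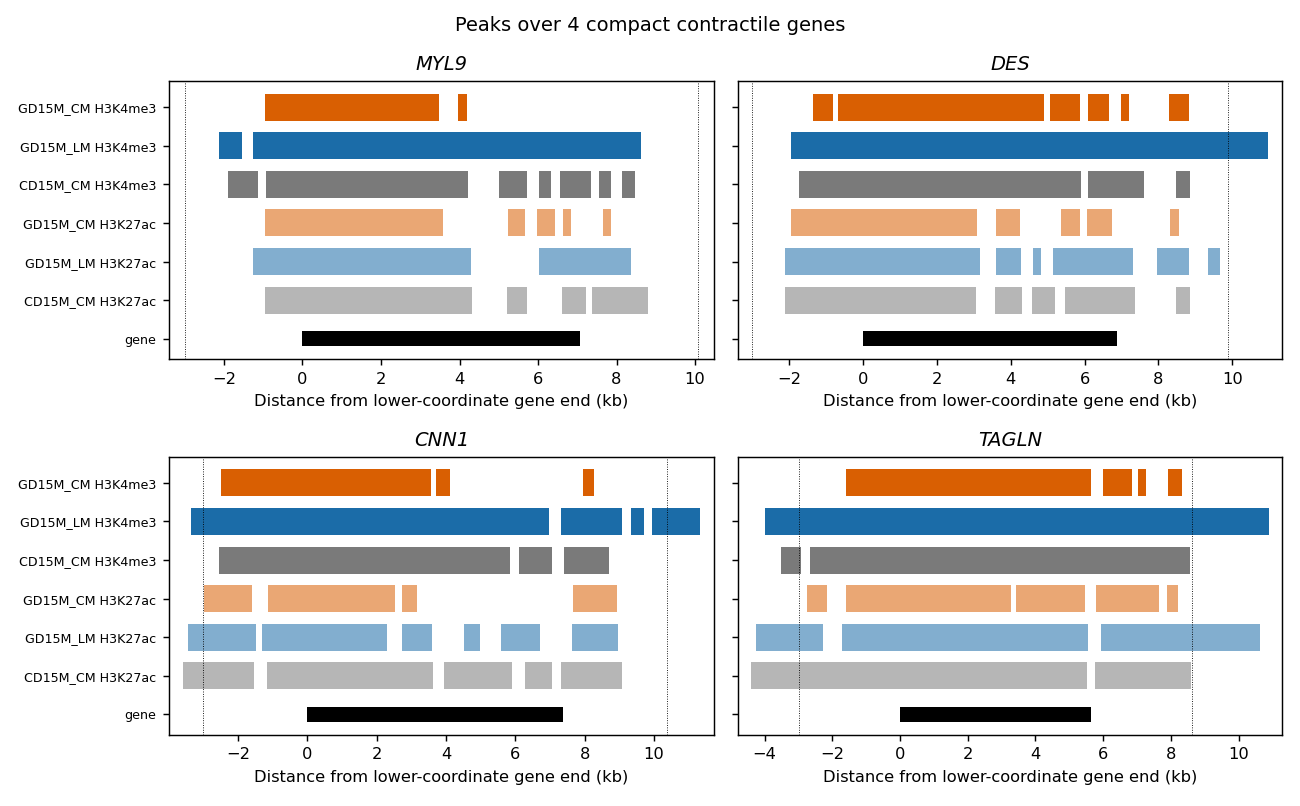
Peaks over MYL9, DES, CNN1 and TAGLN at their distance in kb from the lower-coordinate gene end, 1 row per pooled list, dark for H3K4me3 and light for H3K27ac, with the gene as a black bar. Dotted lines mark 3 kb on either side, and in GD15M_LM a single H3K4me3 peak holds the whole of MYL9, DES and TAGLN.

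SMTN, smoothelin, a marker of contractile smooth muscle (chromosome 14, 47879317 to 47902700), had the longest H3K4me3 peak of the 10 genes in each list. The peak extended over 9430 bp (GD15M_CM), 16009 bp (GD15M_LM) and 15822 bp (CD15M_CM). Here the length in cyclic circular muscle was nearly that of the longitudinal muscle, while the height was not. The fold enrichments were 16.3, 26.4 and 16.8 with percentiles of 81.8, 91.1 and 77.0, which made SMTN the only 1 of the 10 genes with a percentile in GD15M_LM at least 10 points above that in CD15M_CM. H3K27ac covered 89.6%, 88.8% and 95.1% of the window, with 1 peak of 14799, 15693 and 15143 bp. Its highest H3K27ac peaks had percentiles of 94.8, 80.3 and 98.1 but lay at the upper end, over SELENOM, a gene 162 bp away, and in CD15M_CM the peak did not touch SMTN.

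LMOD1, leiomodin, which seeds actin filaments (chromosome 10, 24165293 to 24194823), followed the order of MYH11 and MYL9 in H3K4me3. Its fold enrichments were 16.3, 26.3 and 24.3, its percentiles 81.8, 91.0 and 89.4, and its longest peaks 5242, 8899 and 5659 bp. The peak stood on the upper end. The percentiles of H3K27ac were 87.3, 95.4 and 92.3. In CD15M_CM the longest H3K27ac peak of LMOD1, 9754 bp, lay in the interior (24168958 to 24178711), over the lncRNA gene LOC110255662, and H3K27ac covered 84.3% of the window, against 68.7% in GD15M_CM and 73.0% in GD15M_LM.

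DES, desmin (chromosome 15, 121428539 to 121435426), had the lowest H3K4me3 of the 10 genes in GD15M_CM, enriched 11.6-fold at percentile 71.0. In GD15M_LM the fold enrichment was 25.2 (percentile 89.4) and in CD15M_CM 23.6 (88.5). In GD15M_LM 1 peak of 12909 bp ran from 121426590 to 121439498 and reached beyond both ends of the gene, whereas GD15M_CM had 6 peaks, the longest 5603 bp, and CD15M_CM 3, the longest 7644 bp. DES was also lowest for H3K27ac in GD15M_CM and in CD15M_CM, with percentiles of 68.6 and 87.8 against 94.3 in GD15M_LM. Its longest H3K27ac peaks were of nearly the same length in the 3 lists (5012, 5266 and 5189 bp), and H3K27ac covered 55.2%, 73.7% and 68.8% of the window.

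**Figure D4:**
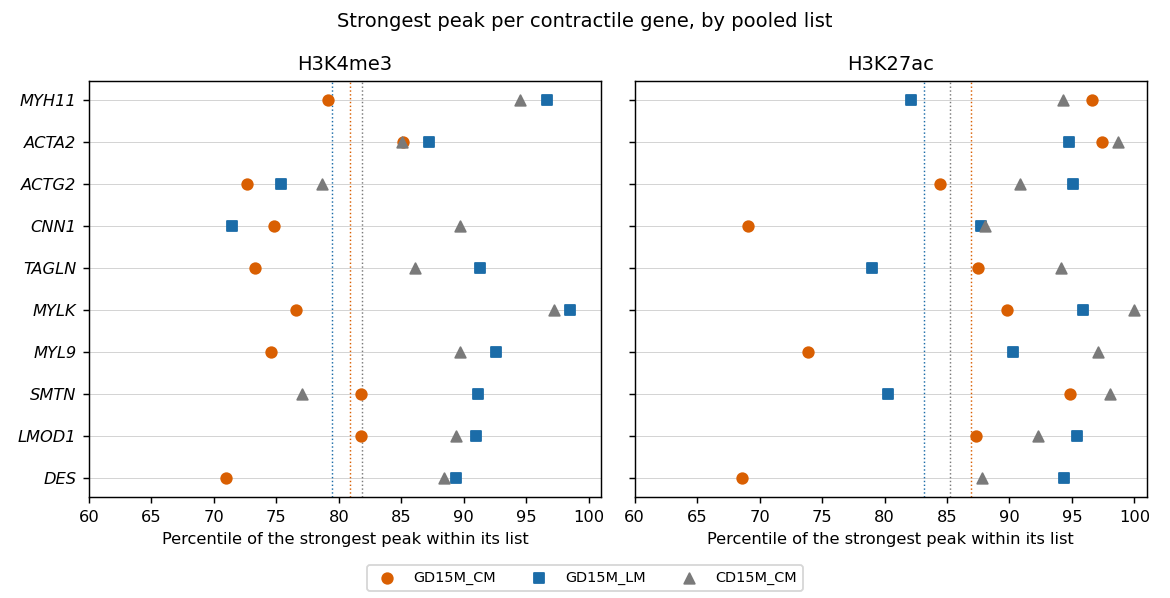
Percentile of the highest peak of each of the 10 genes within its list for H3K4me3 (left) and H3K27ac (right), 1 point per pooled list, on an axis from 60 to 100. Dotted lines mark the medians over all RefSeq genes with a peak in each list, and for H3K4me3 the GD15M_CM circle is the leftmost point for 7 of 10 genes.

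The layers of the pregnant uterus were compared to see whether the contractile genes differ between longitudinal and circular muscle. H3K4me3 was placed higher in GD15M_LM for 9 of 10 genes (48.3% of all genes with a peak in either list), and 5 of 10 were higher by 10 points or more, MYLK (21.9), DES (18.4), MYL9 (18.02), TAGLN (18.01) and MYH11 (17.5), where 20.2% of all genes were. In the other direction 0 of 10 were lower by 10 points or more (20.9%). The median difference was 13.4 points for the 10 genes and -0.40 points over all 17636 genes. The longest H3K4me3 peak was longer in GD15M_LM for 10 of 10 genes (65.1% of all genes with a peak in both lists), and at least 1.5 times longer for 9, all but MYLK, whose ratio was just short of it. Of all genes with a peak in both lists 12.7% passed that ratio, and of those in the longest 5% of either list 18.8%. The ratios of the 9 ran from 1.70 in CNN1, SMTN and LMOD1 to 2.30 in DES. Of the 10, 0 passed the same ratio the other way (4.4%). With peaks less than 1 kb apart joined, 7 of 10 passed it, beside 12.7% of all genes.

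H3K27ac did not order the layers in 1 direction. The genes DES (25.7 points), CNN1 (18.6), MYL9 (16.4) and ACTG2 (10.6) were higher in GD15M_LM, 4 of 10 against 22.5% of all genes, and MYH11 and SMTN were lower by 14.5 points each, 2 of 10 against 33.8%. The median difference was 7.14 points, and over all 18567 genes it was -2.30. For MYH11 and SMTN the H3K4me3 percentile was thus higher and the H3K27ac percentile lower in GD15M_LM. The highest H3K27ac peak of SMTN also overlapped SELENOM in both lists and cannot be given to SMTN alone. When −log10 p set the percentiles, 2 of 10 were higher (15.3% of all genes) and 1 lower (30.7%) for H3K27ac, and 8 of 10 were higher for H3K4me3 (13.6%).

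Circular muscle of pregnant and of cyclic gilts was compared to see what goes with pregnancy. This comparison shares the GD15M_CM lists with the one above, so a low value there enters both. H3K4me3 was lower in GD15M_CM by 10 points or more for 6 of 10 genes, MYLK (-20.7), DES (-17.5), MYH11 (-15.4), MYL9 (-15.1), CNN1 (-14.9) and TAGLN (-12.8), where 23.9% of all genes were, and higher for 0 of 10 (12.4%). The median difference was -13.8 points against -2.13 over all 17645 genes. The call of MYLK rests on its peak near the upper end, and with only peaks within 3 kb of a gene end its difference was -4.39 points. ACTA2 differed by 0.05 points, and SMTN was 4.74 points higher in GD15M_CM. H3K27ac was lower in GD15M_CM for MYL9 (-23.2), DES (-19.2), CNN1 (-18.9) and MYLK (-10.2), 4 of 10 against 27.4%, and higher by as much for 0 of 10 (25.5%). The CD15M_CM value of MYLK comes from the peak that also overlaps LOC102157484. Counted without a limit, 1 gene, MYH11, was higher in GD15M_CM (49.2% of all genes) and the median was -6.52 points against -0.15. The count of genes lower in GD15M_CM by 10 points or more for H3K27ac depended on the ranking. It was 1 of 10 (21.6% of all genes) when peaks were ranked by −log10 p, and 9 of 10 (39.9%) when only strong peaks (−log10 p of at least 10, fold at least 5) were kept. The longest H3K4me3 peak was longer in CD15M_CM for 10 of 10 genes (73.7% of all genes with a peak in both lists), from 6789 against 6773 bp at MYH11 to 15822 against 9430 bp at SMTN, but at least 1.5 times longer only for SMTN and TAGLN (12.9% of all genes, and 18.5% of those in the longest 5% of either list). With peaks less than 1 kb apart joined, MYLK turned, with 7385 bp in GD15M_CM against 7361 bp in CD15M_CM, and 9 of 10 were longer in CD15M_CM (67.2%). Joining also changed which 2 genes passed the ratio (16.1% of all genes). They were then MYL9, with 10389 against 5135 bp, and CNN1, with 12230 against 6623 bp, in place of SMTN and TAGLN. With peaks as listed, the longest H3K4me3 peak was at least 1.5 times longer in GD15M_CM for 0 of 10 (2.29%).

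GD15M_LM and CD15M_CM differ in both layer and pregnancy, which cannot be told apart between them. Their H3K4me3 heights were close for most of the genes, with 8 of 10 higher in GD15M_LM (39.9% of all genes). SMTN was 14.1 points higher in GD15M_LM (12.8% of all genes were higher by 10 points or more), CNN1 was 18.3 points lower (24.7%), and the other 8 were within 6 points. Lengths differed more than heights. The longest H3K4me3 peak was longer in GD15M_LM for 10 of 10 genes (44.6%). It was at least 1.5 times longer in GD15M_LM for MYH11, ACTA2, MYL9, LMOD1 and DES, 5 of 10 against 4.8% of all genes and 6.86% of those in the longest 5% of either list, and ACTG2 had a ratio of 1.499. With peaks less than 1 kb apart joined, 3 of 10 passed the ratio (5.86% of all genes). With peaks as listed, 0 of 10 genes passed it in favour of CD15M_CM (7.8%). H3K27ac was lower in GD15M_LM by 10 points or more for SMTN, TAGLN and MYH11, 3 of 10 against 34.5%, and higher for 0 of 10 (20.9%). The highest CD15M_CM peaks of SMTN and MYH11 lay outside the gene, that of SMTN over SELENOM, and the peak of TAGLN reached into SIDT2. With the gene body alone the count was also 3 (35.2%).

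**Figure D5:**
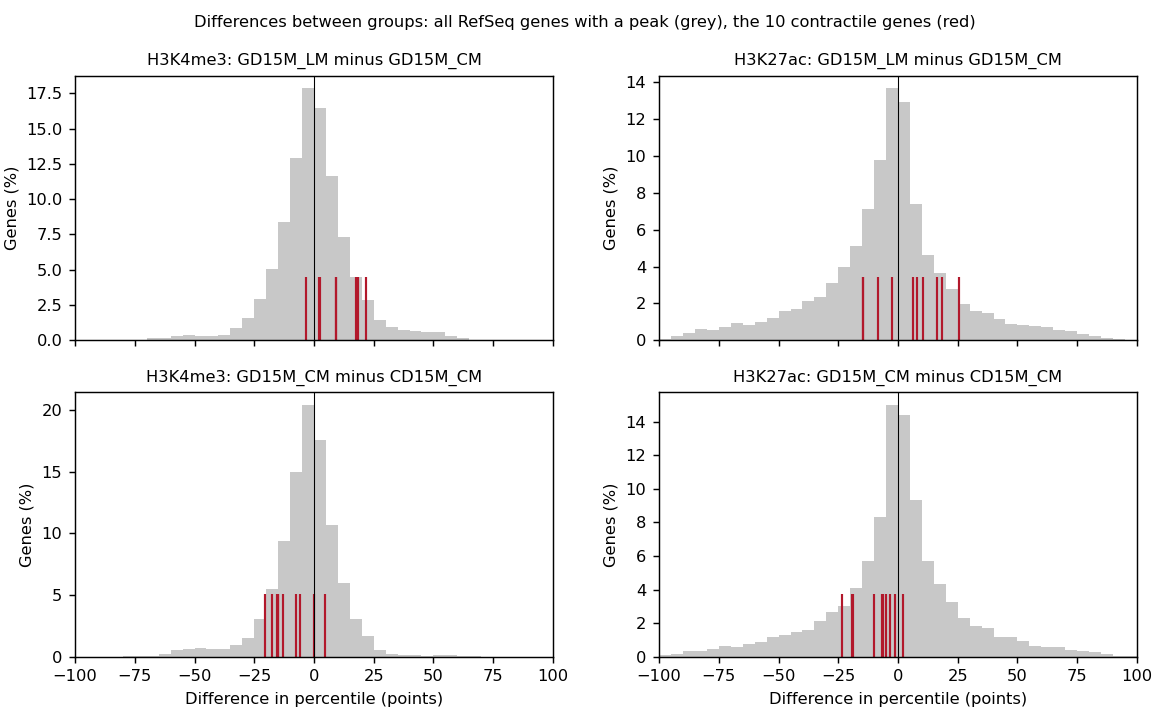
Difference in percentile between 2 pooled lists (points, x axis) for both marks, with the percent of RefSeq genes with a peak in either list in each 5-point bin as grey bars and the 10 contractile genes as red lines whose height carries no value. For H3K4me3, 9 of 10 red lines lie above 0 for GD15M_LM minus GD15M_CM and 8 of 10 below 0 for GD15M_CM minus CD15M_CM, and both rows use the GD15M_CM lists.

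Both marks lay together over these genes. H3K27ac peaks covered a median of 90.3% of the longest H3K4me3 peak in GD15M_CM, 78.5% in GD15M_LM and 94.7% in CD15M_CM, against 73.9%, 58.2% and 68.6% over all genes with an H3K4me3 peak. ACTA2 had the least, with 38.3%, 54.5% and 54.7%. The H3K4me3 peaks took up a median of 37.2% of the window in GD15M_CM, 77.9% in GD15M_LM and 61.0% in CD15M_CM (8.80%, 9.19% and 9.58% over all genes with a peak), and the H3K27ac peaks 47.7%, 63.6% and 64.3% (8.35%, 6.25% and 8.22%). GD15M_CM was lowest in both marks. MYH11 and MYLK were below the all-gene median for H3K4me3 in GD15M_CM (5.63% and 4.99%) and in CD15M_CM (8.20% and 7.37%).

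Much of the H3K27ac lay inside the genes. Of the 125, 171 and 180 H3K27ac peaks of the 10 genes, 85, 128 and 136 were more than 3 kb from both ends, most of them in MYLK and MYH11. In the 9 genes longer than 6 kb, all but TAGLN, the stretch more than 3 kb from both ends was covered to a median of 18.3% in GD15M_CM, 43.6% in GD15M_LM and 44.4% in CD15M_CM. In CNN1, MYL9 and DES this stretch is short. Over all genes of that length with a peak the median was 0.70%, 0% and 0.78%. SMTN and LMOD1 had more than 70% covered in all lists, and MYLK and MYH11, in spite of their many peaks, 30.1% and 22.8% at most. Of the 61, 74 and 74 H3K4me3 peaks, 32, 41 and 37 were interior.

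Other genes of the smooth muscle cytoskeleton, from a list of 20 that includes the tropomyosins, filamin, vinculin, alpha-actinin and calponins CNN2 and CNN3, had peaks of both marks at 20 of 20 genes in every list. Their median H3K4me3 percentiles were 87.2 (GD15M_CM), 94.2 (GD15M_LM) and 89.8 (CD15M_CM), above the contractile genes in each group, while their longest peaks, with medians of 5060, 8110 and 5628 bp, were shorter. Broad H3K4me3 was still common among them. The longest peak was among the longest 5% of its list for 13, 19 and 14 of the 20 (9.42%, 8.99% and 10.3% of all genes). Their maximum lengths were 10527, 18995 and 11353 bp, against 9430, 16009 and 15822 bp for the contractile genes. Between the layers 8 of 20 were higher in GD15M_LM by 10 points or more for H3K4me3 (20.2% of all genes) and 2 lower (20.9%). Between GD15M_CM and CD15M_CM 1 was higher in GD15M_CM (12.4%) and 8 lower (23.9%). For H3K27ac the counts were 3 and 4 (22.5% and 33.8% of all genes), and 1 and 4 (25.5% and 27.4%). Their median H3K27ac percentiles were 94.9, 94.2 and 94.3.

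The paralogues that serve skeletal and cardiac muscle differed from the contractile genes in how often they had a peak. Of 28 listed, 26 were placed (not MYH3 and MYH6), and an H3K4me3 peak was present at 6, 10 and 7 of them in GD15M_CM, GD15M_LM and CD15M_CM and an H3K27ac peak at 9, 9 and 11. The highest were TNNT1, a slow skeletal troponin T, for H3K4me3 (percentiles 77.4, 88.8 and 91.1) and MYBPC3, the cardiac myosin binding protein, for H3K27ac (91.4, 89.8 and 95.8). In each list more of the placed striated genes lacked a peak than had one, where all 10 smooth muscle genes had one. Those with a peak in either list of a pair also differed for H3K4me3, but in part through genes without any peak in GD15M_CM. Of 11, 7 were higher in GD15M_LM than in GD15M_CM by 10 points or more (20.2% of all genes) and 0 lower (20.9%). Among these 7, ACTC1, ACTA1, MYLK2, LMOD2 and MYL7 had no peak in GD15M_CM and count there as percentile 0. The median difference of the 11 was 17.3 points. That is the value of ACTA1, whose GD15M_LM peak was 463 bp long and 3.42-fold enriched. Of 8, 0 were higher in GD15M_CM than in CD15M_CM (12.4%) and 5 lower (23.9%), with a median of -13.1 points. MYLK2 and MYL7 are among those 5, again without a peak in GD15M_CM, whereas all 10 contractile genes had peaks in each list. For H3K27ac the counts were 3 and 4 of 10 (22.5% and 33.8%), and 3 and 5 of 12 (25.5% and 27.4%).

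Markers of other cell types moved with the groups too. The 10 epithelial markers had H3K4me3 peaks at 10 genes in GD15M_CM and CD15M_CM and at 8 in GD15M_LM, where KRT7 and ELF3 had none, with summed fold enrichments of 132, 65.7 and 148 in GD15M_CM, GD15M_LM and CD15M_CM. All 10 were lower in GD15M_LM than in GD15M_CM by 10 points or more for H3K4me3 (20.9% of all genes). For H3K27ac KRT18 and KRT19 had no peak in GD15M_LM, and the sums were 41.8, 33.2 and 39.7. The 7 placed T cell markers, of 8 listed (not ZAP70), had H3K4me3 peaks in every list, with sums of 68.2, 59.4 and 48.4, and H3K27ac peaks at 5, 3 and 2 genes, with sums of 18.8, 10.9 and 6.41. CD3D and CD3G had the same H3K4me3 fold enrichment and longest length in each list (10.2, 10.05 and 4.90-fold), and the H3K4me3 sums count that value for both. CD3D and CD3E had no H3K27ac peak in any list. Over the same lists the summed fold enrichment of the 10 contractile genes was 142, 258 and 237 for H3K4me3 and 52.6, 64.4 and 67.5 for H3K27ac. The part of other cells in the differences of the contractile genes was not tested.

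Of the remaining markers, the 6 of pericytes, contractile cells of vessel walls, had sums of 64.96, 119 and 105 for H3K4me3 and 19.7, 31.1 and 32.0 for H3K27ac, and RGS5 had no H3K27ac peak in GD15M_CM and GD15M_LM. The 8 of fibroblasts and stroma had sums of 104, 164 and 129 for H3K4me3 and 35.04, 41.9 and 41.0 for H3K27ac. The 8 of endothelium had 55.8, 79.8 and 74.6, and 23.1, 19.3 and 23.3, with EMCN at 0 in all lists. The 8 of macrophages and B cells had 52.5, 84.4 and 86.1, and 23.4, 24.8 and 25.8, with MS4A1 at 0 in all lists. Like those of the contractile genes, the sums of pericyte, stromal, and macrophage and B cell markers were lowest in GD15M_CM for both marks. All these sums add fold enrichments, which are not on a common scale between lists. The sums over all genes with a peak were 270610, 335620 and 340610 for H3K4me3 and 93068, 98300 and 93481 for H3K27ac. GD15M_CM thus had the lowest sum over all genes for both marks as well, for H3K27ac only just below CD15M_CM.

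The genes outside the list whose percentiles in the 6 lists were most like the medians of the contractile genes were SETDB2, LOC106505633, LOC110256460, IFNGR2 and CERS6. Their mean absolute differences from those medians were 1.22, 1.32, 1.35, 1.47 and 1.64 points. The contractile genes themselves ranged from 1.97 points (LMOD1) to 8.38 points (CNN1).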

How the data were processed

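Per the labels and the study's methods, the authors aligned reads to the Sscrofa11.1 assembly with BWA v0.7.17-r1188, took out poorly mapped and duplicated reads (Picard v2.8.3, SAMtools v1.9), pooled both replicates and called peaks against IgG with MACS2 v2.2.6. The deposited fold enrichment is a ratio over IgG whose scaling is not stated, and the deposited −log10 p, whose column name was unreadable, was used only to rank or filter peaks. Lists hold no depth and no value per gilt. The labels call the assay ChIP-seq.

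Genes were RefSeq genes on chromosomes 1 to 18, X and Y. Analyses used Python 3.11.15, pandas 2.3.3 and NumPy 2.4.6. Differences of 10 points and length ratios of 1.5 were called. The overlap code was tested on simulated peaks (0 of 500 windows wrong). All 10 genes are named by rule. Of the other lists, the highest genes and those without a peak could be named. The genes and lists were chosen with earlier results of these data known. Alternatives were a strict threshold (−log10 p of 10 and fold 5), windows of 1 kb, of both gene ends and of the gene body, ranking by −log10 p, equal numbers of peaks, calls at 5 points and joining of peaks less than 1 kb apart.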

Additional observations from a re-analysis of the deposited data

How the results depend on the processing

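No paired analysis was possible because replicates were pooled before peaks were called, and for the same reason no replicate could be left out. The CArG box search was not run, since no sequences were used here. Of 128 values that answer a comparison, 104 stayed close to those reported (counts, lengths and coverage within 1.5 times, percentiles within 10 points) and 24 moved. These values have no sign, so none could reverse. The window of 1 kb, the gene body alone (chosen after seeing the data) and equal numbers of peaks moved 0 of those 128. Of 240 values of single genes 42 moved, 3 of them with equal numbers of peaks, which put H3K27ac in GD15M_LM above GD15M_CM by 31.0 (CNN1), 26.9 (MYL9) and 38.3 points (DES). A change of sign within 10 points was not counted as moved. Ranked by −log10 p, the H3K27ac difference of GD15M_LM minus GD15M_CM went from -8.44 to 1.31 points at TAGLN. At MYLK it went from 6.12 to -0.96, and at ACTA2 from -2.675 to 3.49. The strict threshold moved the most, since it leaves as few as 9711 of the H3K27ac peaks. Under it the median percentile was 48.1 (H3K4me3) and 6.39 (H3K27ac) in GD15M_CM, 61.2 (H3K27ac) in GD15M_LM, and 75.6 and 53.4 in CD15M_CM, and 6 of 10 genes kept an H3K27ac peak in GD15M_CM. H3K4me3 was then higher in GD15M_LM than in GD15M_CM by 10 points or more for 8 genes (34.8% of all genes, 20.2% without the threshold). For H3K4me3 1 gene was higher in GD15M_CM than in CD15M_CM (25.3%) and 8 were lower (34.4%). For H3K27ac 1 was higher (41.3%) and 9 were lower (39.9%). H3K27ac in the gene interior fell to 1.46%, 6.55% and 19.6% in GD15M_CM, GD15M_LM and CD15M_CM. Ranked by −log10 p, 8 genes were higher in GD15M_LM than in GD15M_CM for H3K4me3 (13.6% of all genes). For H3K27ac 2 were higher (15.3%) and 1 lower (30.7%) there, and 1 was lower in GD15M_CM than in CD15M_CM (21.6%). With only the gene ends, 1 gene (ACTA2) was higher in GD15M_CM than in CD15M_CM for H3K27ac (28.1% of all genes). With calls at 5 points 7 were lower for this mark, and no share of all genes is given for that limit. Joining peaks gave a median longest H3K4me3 peak of 9101 bp in GD15M_CM and interior H3K27ac of 28.5%, 89.4% and 91.1%. It left 3 genes (chosen after seeing the data) at least 1.5 times longer in GD15M_LM than in CD15M_CM (5.86% of all genes). Joined, 7 genes passed that ratio for GD15M_LM over GD15M_CM (12.7% of all genes). The cause of these shifts was not tested. The lists give neither depth nor a value per gilt, which limits every comparison.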
